A study of Mus musculus with 30 samples.

Results

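The 64 genes described here are small nucleolar RNA (snoRNA) genes of the mouse, taken from a table of RNA sequencing counts of bone marrow-derived dendritic cells. They were chosen by symbol and by count: an Ensembl identifier annotated with a symbol beginning Snord (box C/D class) or Snora (box H/ACA class), and at least 10 counts in at least 3 of the 30 libraries. Of 54532 rows, 141 carried such a symbol, 99 Snord and 42 Snora, and 64 met the count rule, 45 Snord and 19 Snora. Of the other 77, 6 had no count in any library and 71 had too few. The counts themselves chose the genes, so low-count genes could enter through the groups in which they were highest. Just inside the limit stood Snora81 with 10 or more counts in 3 libraries and Snord118 and Snord1c in 4 libraries. Just outside it, with 2 libraries each, stood Snora23, Snora64, Snora65, Snord35b, Snord70 and Snord78. A filter on low counts left 62 of the 64 for testing, 44 Snord and 18 Snora, without Snord118 and Snora81.

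The cells were grown from mouse marrow with GM-CSF, a cytokine that yields cultures of dendritic cells mixed with other myeloid cells, and were exposed to viable conidia (spores) of the mould Aspergillus fumigatus, isolate AF29. The groups were Nlrx1-deficient cells (KO) before exposure (0 h) and 3, 6, 9 and 12 h after it, and wild-type cells (WT) at the same times, with 3 libraries per group and 10 groups. Nlrx1 encodes a mitochondrial NOD-like receptor, and the labels do not give its allele, the strain or the age of the mice. No label ties the 3 libraries of a group to different mice or wells. The p-values therefore measure only the spread between these libraries, which may be technical. In bulk RNA, fewer cells of a type and less RNA per cell cannot be told apart.

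Box C/D snoRNAs pair with ribosomal RNA and direct 2'-O-methylation by fibrillarin, and box H/ACA snoRNAs direct conversion of uridine to pseudouridine by dyskerin. A few members of each class serve instead to cut and fold the ribosomal RNA precursor. In vertebrates most of them are released from introns of host genes, many of which encode ribosomal proteins or have no known protein product. Mature snoRNAs carry no poly(A) tail, whereas these libraries were made with a kit that selects poly(A) RNA, so the counts may hold carried-over mature snoRNA, host precursors and host exons alike. Of the 64 genes, 34 lay inside an annotated exon of some transcript on their strand, 23 lay in an intron, 2 overlapped an exon in part and 5 had no annotated host.

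The members on which the results turn are shown here as their annotated sequences, 5' to 3', from GENCODE M21 transcripts on mouse build GRCm38. In Snord genes the capitals mark the C box, searched as NTGATGA in the first 25 bases, and the D box, searched as CTGA in the last 16 bases. In Snora genes they mark ACA in the last 10 bases. Only the annotated strand was searched. Both boxes were found in 31 of 45 Snord members (68.9%) and in 68 of all 99 named Snord rows (68.7%). The ACA was found in 17 of 19 Snora members (89.5%) and in 40 of all 42 named Snora rows (95.2%). The first pair, Snord14c and Snord14d, differ by an edit distance of 2 over 86 bases (97.7% identity), so reads may have been divided between them.
Snord14c: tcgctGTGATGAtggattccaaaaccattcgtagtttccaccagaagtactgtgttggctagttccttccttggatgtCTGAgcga
Snord14d: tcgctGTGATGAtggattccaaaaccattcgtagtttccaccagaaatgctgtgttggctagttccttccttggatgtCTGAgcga
Snord60: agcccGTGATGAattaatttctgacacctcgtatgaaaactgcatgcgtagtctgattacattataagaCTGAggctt
Snord66: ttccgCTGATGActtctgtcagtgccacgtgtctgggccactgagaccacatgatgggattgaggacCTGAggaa
Snord99: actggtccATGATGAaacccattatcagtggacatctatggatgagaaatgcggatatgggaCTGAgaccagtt
Snord34: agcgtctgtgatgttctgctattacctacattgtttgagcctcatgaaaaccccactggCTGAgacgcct
Snord15a: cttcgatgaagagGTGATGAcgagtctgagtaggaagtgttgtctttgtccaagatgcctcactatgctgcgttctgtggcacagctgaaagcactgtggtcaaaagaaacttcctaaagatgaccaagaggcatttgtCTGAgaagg
Snora24: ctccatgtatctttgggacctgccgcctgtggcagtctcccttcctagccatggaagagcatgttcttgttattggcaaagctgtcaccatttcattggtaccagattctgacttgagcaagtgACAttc
Snora16a: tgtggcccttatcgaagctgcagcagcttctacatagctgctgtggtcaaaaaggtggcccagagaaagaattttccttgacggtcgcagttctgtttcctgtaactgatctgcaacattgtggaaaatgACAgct

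These genes lie at chr9:40803583-40803668 on the plus strand (Snord14c) and chr9:40803995-40804080 on the plus strand (Snord14d), both within exons of some Hspa8 transcript. Snord60 lies at chr17:24528476-24528553 (plus strand) within an exon of Rab26os, and Snord66 at chr16:20684239-20684313 (plus strand), overlapping an exon of Eif4g1 in part. Snord99 lies at chr4:132310691-132310764 and Snora16a at chr4:132309465-132309600, both on the plus strand and within exons of Snhg12. Snord34 lies at chr7:45126601-45126670 (minus strand) in an intron of Rpl13a, and Snord15a at chr7:99482785-99482932 (minus strand) in an intron of Rps3. Snora24 lies at chr3:123507937-123508066 (minus strand) within an exon of Snhg8. Besides Snord14c and Snord14d, 4 further pairs of members were at least 80% identical: Snord50a and Snord50b (98.6%), Snord1b and Snord1c (97.4%), Snora73a and Snora73b (96.6%) and Snord14e and Snord14a (82.2%). Their values are uncertain to the extent that the counting divided shared reads.

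The highest Snord genes stood above the highest Snora genes per length, and the classes overlapped lower down. In CPM (counts scaled to library size) per kilobase, averaged over 30 libraries, the highest Snord genes were Snord21 (1921), Snord14d (1708), Snord34 (1556), Snord87 (1312) and Snord99 (1137). The highest Snora genes were Snora7a (145), Snora61 (73.7), Snora24 (61.5), Snora73a (60.7) and Snora73b (44.3). Of the 45 Snord members, 19 had a lower level per length than Snora7a. The count of 10 was reached in all 30 libraries by 28 members, 27 Snord and Snora7a.

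The libraries held 1722384 to 3509429 counts each. The targeted gene had 0 to 14 counts in KO libraries and 13 to 46 in WT libraries, and its mean level was lower in KO (log2 change -1.87 ± 0.28, standard error, adjusted p = 1.71e-05). Dendritic cell genes were present: the 13 on the list summed to 3448 to 3862 CPM in KO libraries and to 2750 to 3806 in WT libraries, led by Itgax and Cd74, whereas Flt3 stayed at 0 to 2.46 in KO and 0 to 2.19 in WT. The 9 macrophage genes summed to 1956 to 2542 CPM in KO and 2427 to 3410 in WT, and the 10 neutrophil genes to 190.1 to 541 in KO and 375 to 975 in WT. Their part in the snoRNA results was not tested. The B cell list summed to 1.31 to 9.29 CPM in KO and 0.42 to 7.20 in WT, and the T and NK cell list to 0 to 3.08 in KO and 0 to 4.98 in WT, with Cd79a and Cd3e at a median of 0 in each genotype.

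Summed over the 45 Snord members, the level was 1375 ± 75.7, 1287 ± 111, 1400.1 ± 138, 1528 ± 196 and 1575 ± 204 CPM at 0, 3, 6, 9 and 12 h in KO (SD, n = 3 at each time). In WT it was 1668 ± 65.7, 1871 ± 167, 2108 ± 62.9, 1304 ± 303 and 1326 ± 34.5 CPM at the same times. KO libraries lay below WT libraries without overlap at 0, 3 and 6 h, and the ranges overlapped at 9 h. The 19 Snora members summed to 73.4 ± 17.2, 75.2 ± 5.97, 106.9 ± 40.7, 79.9 ± 19.5 and 96.8 ± 5.49 CPM in KO, and to 139 ± 22.6, 155 ± 16, 179.9 ± 19.9, 109.7 ± 11.1 and 110.1 ± 10.8 CPM in WT. No test was made of these sums.

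A second quantity was set beside these sums. A block of 3 adjoining or overlapping rows lies at a ribosomal RNA locus on chromosome 17 (CT010467.1, annotated rRNA, with AY036118 and Gm26917, annotated lincRNA). It took 11.3% to 14.2% of counts in the 15 KO libraries and 9.26% to 19.7% in the 15 WT libraries. In KO it averaged 13.0%, 12.2%, 11.6%, 13.2% and 12.7% at 0, 3, 6, 9 and 12 h, and in WT 17.7%, 18.4%, 17.5%, 12.0% and 11.8%. WT libraries at 0, 3 and 6 h were thus high both in this share and in summed Snord level. Within KO the mean summed Snora level was highest at 6 h (106.9 CPM), where the mean share was lowest. That Snora mean rested on KO 6 h replicate 3 (153.4 CPM). The other KO 6 h libraries had 77.3 and 89.96 CPM, below the KO 12 h mean of 96.8 CPM. The 3 rows did not move as one. In WT at 9 h against 0 h, Gm26917, on the plus strand, had a log2 change of 0.04. AY036118 and CT010467.1, on the minus strand, had -0.84 and -0.68. WT 9 h replicate 3 had the lowest share (9.26%) and the lowest summed Snord level (970.1 CPM) of the 30 libraries. A fit that includes this share as a term is given below, and it cannot separate the share from the genotype.

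**Figure D1:**
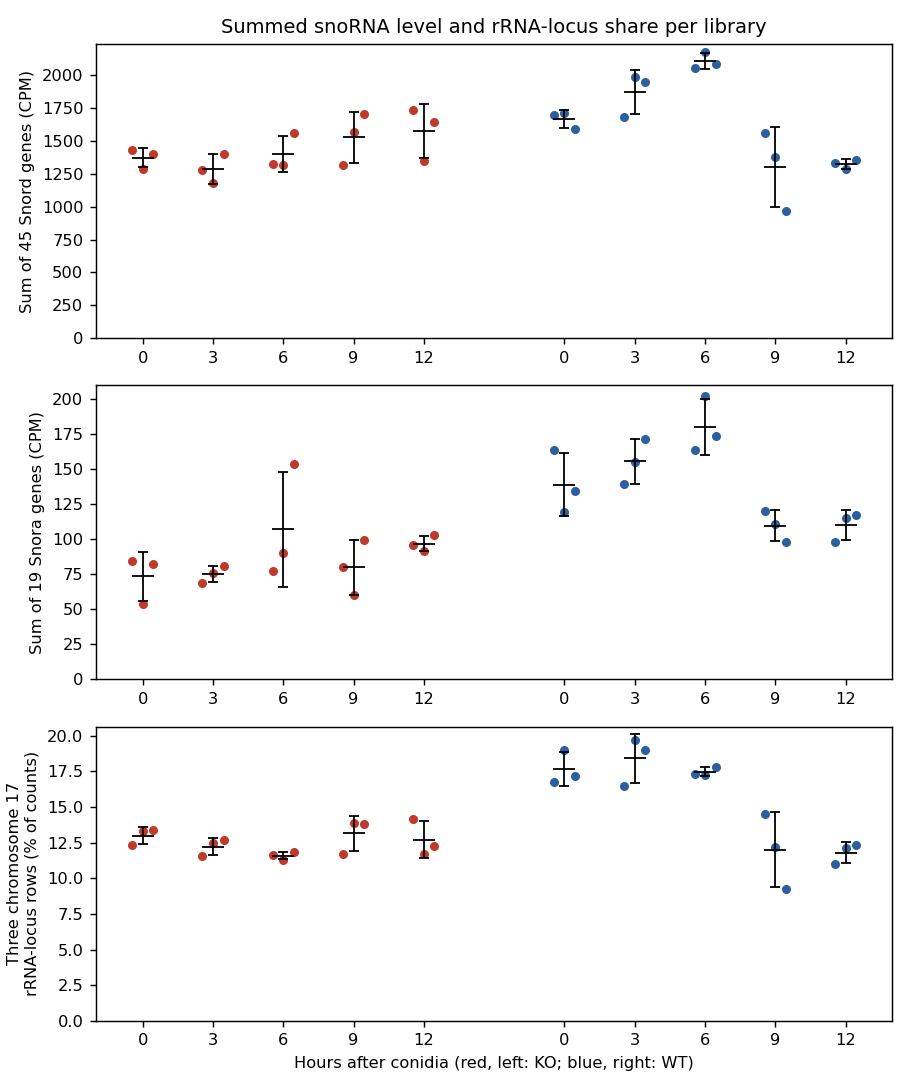
Summed CPM of the 45 Snord genes (top), of the 19 Snora genes (middle) and percent of counts on the 3 rRNA-locus rows of chromosome 17 (bottom) by hours after conidia, with KO in red on the left and WT in blue on the right; points are libraries, bars are mean and SD of 3. WT libraries lie above KO libraries in each panel at 0, 3 and 6 h, most narrowly in the Snora panel at 6 h, where the highest KO library has 153 and the lowest WT library 164.

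Before exposure, 10 of 62 tested snoRNA genes were lower in KO than in WT and 1 was higher, against 2.76% lower and 2.26% higher among all 12393 genes tested (edgeR's quasi-likelihood test, adjusted p under 0.05 over all genes). The 10 were Snora16a and 9 Snord genes: Snord14c, Snord14d, Snord15a, Snord17, Snord49a, Snord58b, Snord60, Snord83b and Snord110. Snord99 was the gene that was higher. The median log2 change was -0.44 over 44 Snord and -0.94 over 18 Snora genes, against 0.01 over all genes. At 3 h 22 were lower, 17 Snord and 5 Snora, and 0 were higher (all genes 3.9% lower, 3.02% higher; 39 of the 62 had an unadjusted p under 0.05). At 6 h 21 were lower, 18 Snord and 3 Snora, and 0 were higher (all genes 3.36% lower, 2.42% higher; 38 with an unadjusted p under 0.05). The median log2 changes were -0.77 (Snord) and -1.04 (Snora) at 3 h and -0.77 and -0.78 at 6 h, against 0.02 and 0.01 over all genes. At least 1 of the 3 times called 30 genes lower, and 6 were lower at each of them: Snord14c, Snord14d, Snord15a, Snord58b, Snord60 and Snord83b. With any 1 of their 6 libraries left out, 4 calls held at 0 h, 11 at 3 h and 7 at 6 h. The count at 0 h was 6 or 7 with the loss of any of WT replicates 1, 2 and 3 or KO replicates 2 and 3. At 3 h it was 13 without WT replicate 3 and 14 without KO replicate 3. At 6 h it was 9 without KO replicate 1, 11 without KO replicate 2, 12 without WT replicate 2 and 13 without WT replicate 3.

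The counts shifted at the later times. At 9 h 4 genes were lower in KO (Snord15a, Snord17, Snord58b, Snora62) and 5 were higher (Snord34, Snord35a, Snord82, Snord99, Snord100), against 2.91% lower and 2.15% higher among all genes. At 12 h edgeR called 0 of 62 in either direction (all genes 1.9%), with 11 at an unadjusted p under 0.05, and DESeq2 called 1, higher in KO. The median log2 change at 12 h was 0.21 for Snord and -0.28 for Snora genes.

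**Figure D2:**
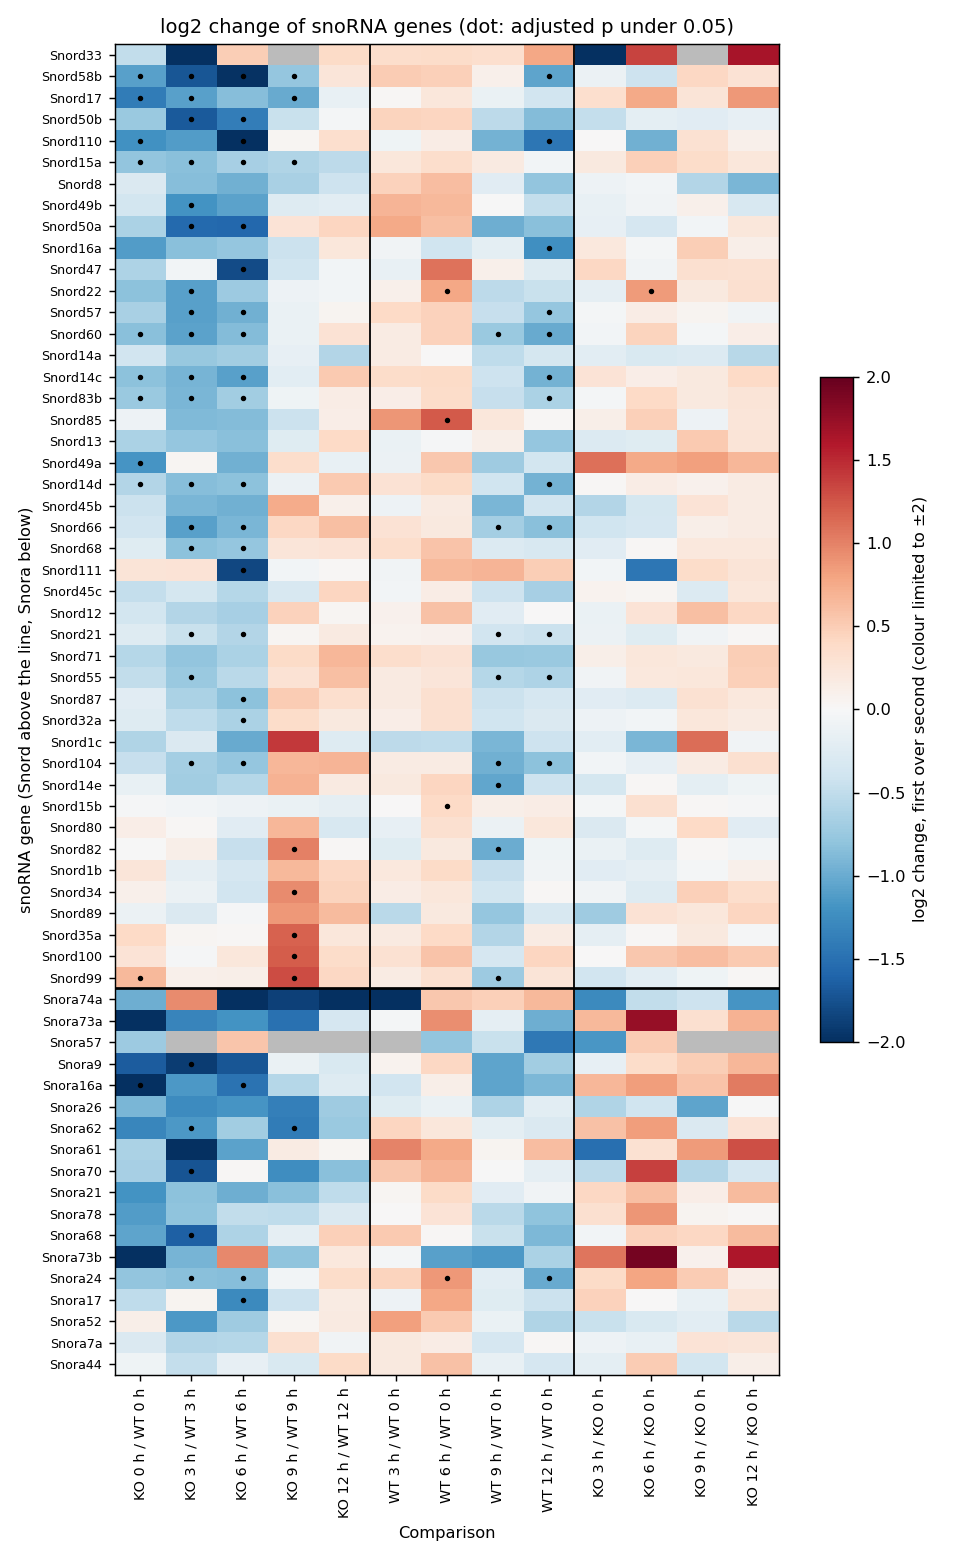
log2 change of the 62 tested snoRNA genes (rows, Snord above the line and Snora below, each ordered by the KO mean over WT mean) in 13 comparisons (columns, first group over second); colour runs from -2 (blue) to 2 (red), dots mark an adjusted p under 0.05 and grey marks a group with every library at 0. KO over WT is mostly blue at 0, 3 and 6 h, with 10, 22 and 21 genes called lower, and WT 12 h over WT 0 h holds 13 dots, whereas KO over KO 0 h holds 1.

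Snord14c and Snord14d belong to the U14 family, which in yeast and vertebrates guides methylation of 18S rRNA and is needed for processing of the 18S precursor. At 3 h Snord14d had 107, 122 and 128 CPM in KO libraries, against 177, 228 and 242 CPM in WT libraries, which did not overlap (log2 change -0.85 ± 0.16, adjusted p = 0.000829). At 6 h it had 119, 129 and 141 CPM in KO, against 254, 213 and 223 CPM in WT (-0.82 ± 0.16, adjusted p = 0.00152). By 12 h the order was turned, with 146, 113 and 137 CPM in KO and 85.8, 91.6 and 96.2 CPM in WT, a difference that missed the threshold (0.53 ± 0.16, adjusted p = 0.105). KO levels of Snord14d thus stayed within 107 to 146 CPM over the 5 times, whereas WT levels ran from 85.8 to 254 CPM. Its near copy Snord14c had the same course, with 49.6, 61.1 and 53.0 CPM in KO and 93.2, 108 and 90.9 CPM in WT at 0 h (-0.83 ± 0.19, adjusted p = 0.00776). Snord14e, from the same host, and Snord14a, from Rps13, were not called between genotypes at a single time.

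Genes tied to processing of the rRNA precursor, with Snord14a, Snord14c, Snord14d and Snord14e among them, were followed as a list of 11. Of these, 9 were in the table and 8 were tested. At 0, 3 and 6 h, 2, 3 and 2 of the 8 were lower in KO (all genes 2.76%, 3.9% and 3.36%). Those at 0 and 6 h were Snord14c and Snord14d, which were joined at 3 h by Snord22. For the average over KO groups against that over WT groups 5 were lower (all genes 12.2%): Snord13, Snord14c, Snord14d, Snord22 and Snora73a. Snord22, from Snhg1, is a box C/D RNA on this list for which no methylation target in rRNA is known. It had 12.2, 10.2 and 10.2 CPM in KO and 13.7, 24.9 and 31.6 CPM in WT at 3 h (-1.08 ± 0.26, adjusted p = 0.00797), a call that ended without WT 3 h replicate 3. Snord13, which in human cells takes part in 18S maturation, was lower on average (-0.42 ± 0.14, adjusted p = 0.027) but was called at no single time. Snora73a (U17, which acts in 18S processing) averaged 7.28 ± 6.15 CPM in 15 KO libraries and 17.6 ± 9.24 CPM in 15 WT libraries (-1.27 ± 0.31, adjusted p = 0.00449), with overlapping ranges. Its near copy Snora73b was not called (-0.52 ± 0.55, adjusted p = 0.533) and ranged from 0 to 23.8 CPM within the WT 3 h libraries. Snord118 (U8), needed in vertebrates for processing of 5.8S and 28S rRNA, reached at most 3.76 CPM in KO and 4.43 in WT and was not tested.

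Among guides of methylation, Snord60, a guide for 28S rRNA in human cells, had 13.9, 14.5 and 24.6 CPM in KO and 31.5, 42.7 and 37.1 CPM in WT at 3 h, without overlap (-1.07 ± 0.21, adjusted p = 0.00133). Snord66, a guide for 18S rRNA in human cells, had 12.6, 14.5 and 14.3 CPM in KO and 24.7, 27.0 and 36.6 CPM in WT at 3 h (-1.08 ± 0.19, adjusted p = 0.000377). Snord58b, from an intron of Rpl17 and of a family that guides 28S rRNA in human cells, had 4.62, 6.63 and 4.60 CPM in KO against 24.6, 21.0 and 17.3 CPM in WT at 6 h (-1.98 ± 0.25, adjusted p = 6.78e-06). That was the smallest adjusted p of a snoRNA gene at a single time. Snord110, from Nop56 and a guide for 18S rRNA in human cells, had the largest called fall at 6 h (-2.32 ± 0.40, adjusted p = 0.00038) on low levels, 2.31, 1.42 and 2.51 CPM in KO against 8.49, 10.5 and 12.7 CPM in WT.

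**Figure D3:**
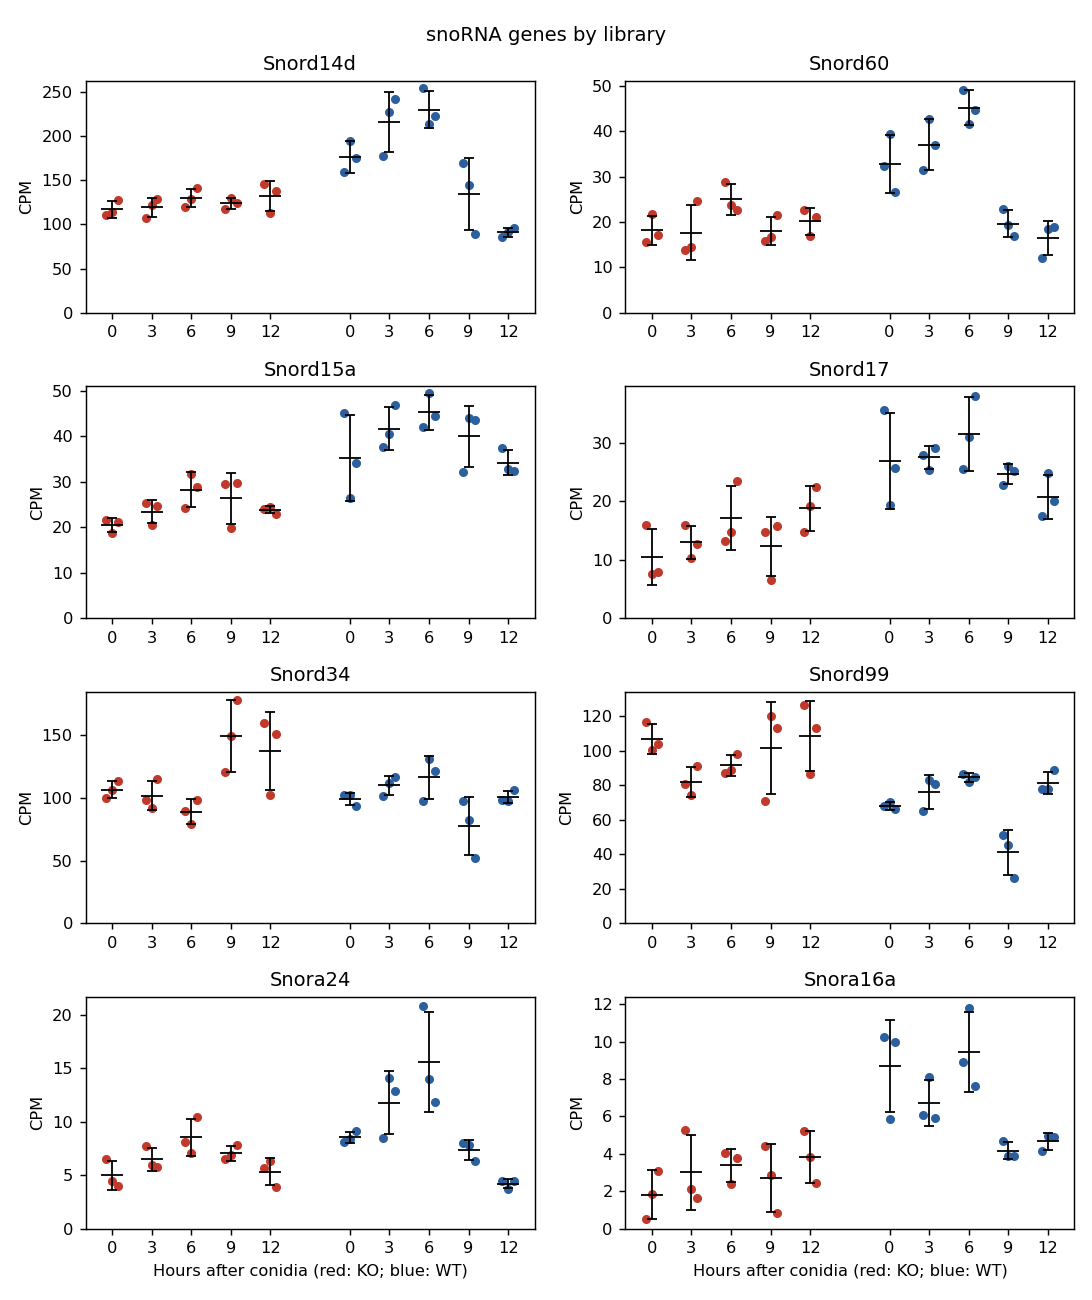
CPM of 8 snoRNA genes in each library by hours after conidia (KO red, left; WT blue, right), with mean and SD of 3; each panel starts at 0. Snord14d and Snord60 in WT are higher at 6 h than at 12 h, Snord15a and Snord17 in KO lie below WT at most times, and Snord34 and Snord99 in KO lie above WT at 9 h.

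Box H/ACA genes moved mainly downward in KO. For the average over the 5 KO groups, set against that over the 5 WT groups, 10 of 18 were lower and 0 higher, and for Snord genes 19 of 44 were lower and 3 higher; among all genes 12.2% were lower and 12.6% higher. Each of the 18 Snora genes had a log2 change below 0, at a median of -0.88, whereas the Snord median was -0.28. Low-count Snora genes could enter by the count rule through the genotype in which they were higher. Snora26, for instance, reached 10 counts in 7 of 30 libraries. The shared sign may thus be set in part by the rule. Whether the classes differ was not tested. Snora16a, from Snhg12, had 0.501, 1.87 and 3.09 CPM in KO and 10.2, 5.87 and 9.96 CPM in WT at 0 h (-2.20 ± 0.46, adjusted p = 0.00339). Snora62, from Rpsa and a guide for 28S rRNA in human cells, had 2.05, 1.81 and 2.89 CPM in KO and 7.71, 4.22 and 6.01 CPM in WT at 9 h (-1.40 ± 0.39, adjusted p = 0.0318). Snora24, from Snhg8 and a guide for 18S rRNA in human cells, had 8.08, 7.10 and 10.4 CPM in KO and 20.8, 14 and 11.8 CPM in WT at 6 h (-0.85 ± 0.24, adjusted p = 0.032). At 3 h Snora9, Snora68 and Snora70 were also lower without overlap, by log2 changes of -1.90, -1.63 and -1.73, on KO means of 1.39, 3.08 and 1.31 CPM and WT means of 5.42, 9.71 and 4.45 CPM, and at 6 h Snora17 had a log2 change of -1.27. Of the Snora calls between genotypes at single times, that of Snora16a at 0 h was the one that held with any 1 of its 6 libraries left out, and the 10 calls for the genotype means held with any 1 of 30 left out.

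The genes that were higher in KO formed a short list. Snord99, which guides 28S rRNA in human cells, had 117, 100.1 and 104 CPM in KO and 67.8, 70.1 and 66.0 CPM in WT at 0 h (0.65 ± 0.18, adjusted p = 0.0335), a call that ended when any 1 of the 6 libraries was left out (adjusted p up to 0.126). At 9 h it had 70.8, 120.1 and 113 CPM in KO and 51.3, 45.4 and 26.5 CPM in WT (1.30 ± 0.18, adjusted p = 3.62e-05). At 3, 6 and 12 h it was not called. Snord34 had 121, 149 and 178 CPM in KO and 97.9, 82.1 and 52.3 CPM in WT at 9 h (0.95 ± 0.18, adjusted p = 0.0011). Snord35a (1.18), Snord82 (1.01) and Snord100 (1.22) were higher at 9 h as well, without overlap of the libraries. Each of these 5 calls at 9 h held when any 1 of its libraries was left out, WT 9 h replicate 3 included. For the means over the 5 times, Snord99 (0.52 ± 0.08, adjusted p = 2.89e-05), Snord100 (0.41 ± 0.10, adjusted p = 0.00467) and Snord35a (0.37 ± 0.10, adjusted p = 0.00634) were higher in KO.

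A fit that added each library's log2 share on the 3 rRNA-locus rows, a choice made after the data were seen, changed most of these calls. It left 14 genes called between the genotype means in place of 32, 7 lower and 7 higher, and 10 of the 14 were called in the same direction without the term (all genes 9.53% in place of 24.9%). The genes lower in KO in both fits were Snord15a, Snord17, Snord58b, Snora16a, Snora21, Snora62 and Snora73a, and those higher in both were Snord35a, Snord99 and Snord100. Snord15a, a guide for 28S rRNA in human cells, averaged 24.5 ± 3.93 CPM in 15 KO libraries and 39.3 ± 6.62 CPM in 15 WT libraries, with log2 changes of -0.68 without the term and -0.86 with it. Snord17 averaged 14.3 ± 4.99 CPM in KO and 26.3 ± 5.63 CPM in WT (-0.90 without the term and -1.09 with it). In contrast Snord14d moved to 0.00 (adjusted p = 0.988) and Snord60 to -0.20 (adjusted p = 0.352), and Snord34 became called higher in KO (0.56, adjusted p = 1.79e-05). Some genes lost their call with little change of fold: Snora26 had a log2 change of -1.09 without the term and -1.04 with it, Snora9 -1.14 and -1.02, and Snord16a -0.59 and -0.56. At 0, 3 and 6 h, 5, 3 and 3 genes were called with the term (all genes 2.6%, 1.83% and 1.24%), of which 3, 1 and 2 were lower in KO. The calls at 9 h were mostly kept. There 7 genes were called with the term, 5 higher and 2 lower in KO (all genes 4.25%). All 7 were among the 9 called without it, in the same direction. The mean share was higher in WT at 0, 3 and 6 h and somewhat higher in KO at 9 and 12 h. As the fit also held a term for each group, the effect of the share was estimated from the spread within groups. How much of each difference belongs to the share or to the genotype cannot be told apart.

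**Figure D4:**
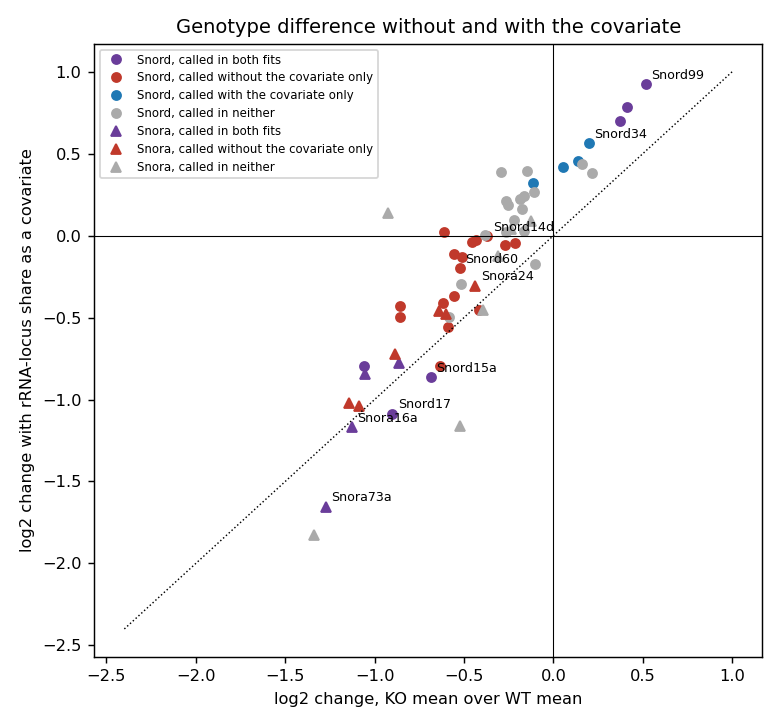
log2 change of each tested snoRNA gene, KO mean over WT mean, in the fit without (x) and with (y) each library's rRNA-locus share as a term; circles are Snord and triangles Snora, colours give the fits that called the gene, the dotted line marks equal values, and Snord33 and Snora57, which had groups at 0, are left out. Most Snord genes lie above the line, and Snord15a, Snord17, Snora16a and Snora73a lie at or below it.

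After exposure, WT cells passed from a higher to a lower snoRNA level. At 3 h 0 of 62 genes were called by edgeR against 0 h (all genes 1.02%), with 5 at an unadjusted p under 0.05, and DESeq2 also called 0. At 6 h 4 were higher and 0 lower (all genes 3.29% higher, 2.67% lower), namely Snord15b (0.40), Snord22 (0.77), Snord85 (1.23) and Snora24 (0.86), and the median log2 change was 0.36 for Snord and 0.40 for Snora genes. With any 1 of the 6 libraries left out, 1 or 2 snoRNA genes were called, and 0 of these 4 calls held in each such fit. At 9 h 8 were lower and 0 higher (all genes 4.81% lower, 5.57% higher), all Snord: Snord14e, Snord21, Snord55, Snord60, Snord66, Snord82, Snord99 and Snord104. At 12 h 13 were lower and 0 higher (all genes 8.47% lower, 9.64% higher), Snora24 and 12 Snord genes. Between 9 h and 6 h 20 were lower and 0 higher (all genes 0.831% lower, 0.524% higher), at median log2 changes of -0.82 for Snord and -0.67 for Snora genes, against 0.01 over all genes.

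Single genes show the size of that fall. Snord14d fell to 85.8, 91.6 and 96.2 CPM in WT at 12 h, against 159.6, 195 and 175 CPM in WT at 0 h, without overlap (-0.95 ± 0.16, adjusted p = 9.28e-05). Snord60 fell to 22.8, 19.5 and 16.8 CPM in WT at 9 h, against 49.2, 41.6 and 44.8 CPM in WT at 6 h (-1.20 ± 0.20, adjusted p = 0.000938). Snora24 fell to 4.43, 3.71 and 4.5 CPM in WT at 12 h, against 8.12, 8.39 and 9.13 CPM in WT at 0 h (-1.01 ± 0.26, adjusted p = 0.00734). These 3 falls were called with any 1 library left out. Snord82, from Ncl and a guide for 18S rRNA in human cells, was lower at 9 h only for a time: it had 39.6, 26.3 and 21.9 CPM at 9 h, against 61.4, 57.1 and 55.6 CPM at 0 h (-0.99 ± 0.19, adjusted p = 0.000673), and 56.2, 49.2 and 59.4 CPM at 12 h.

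The WT 9 h counts rested in part on replicate 3. Without that library 2 genes were called lower at 9 h in place of 8, and 7 in place of 20 between 9 and 6 h, while omitting WT 9 h replicate 1 gave 15 at 9 h. Without WT 0 h replicate 2 it was 5, and between 9 and 6 h it was 11, 12 and 13 without WT 6 h replicate 1, WT 6 h replicate 3 and WT 9 h replicate 2. The Snord median at 9 h against 0 h was -0.18 without replicate 3 and -0.42 with it. With the rRNA-locus share as a term, WT 9 h called 0 genes against 0 h and 0 against 6 h, and WT 12 h called 4 of 62, near the share of all genes (6.99%), all higher (Snord34, Snord80, Snord99 and Snord100). The 4 genes called higher at 6 h were called again among 8 of 62 (all genes 6.01%).

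In KO cells few snoRNA genes were called over time. The Snord medians of log2 change against 0 h were -0.11, -0.05, 0.19 and 0.21 at 3, 6, 9 and 12 h. The Snora medians were -0.08, 0.50, 0.07 and 0.24. At 3, 9 and 12 h against 0 h edgeR called 0 of 62 (all genes 1.22%, 10.9% and 14.7%), with 3, 4 and 4 at an unadjusted p under 0.05, and DESeq2 called 0, 0 and 1. At 6 h Snord22 was the only gene called: it had 21.4, 18.9 and 25.9 CPM in KO at 6 h, against 16.5, 8.99 and 11.9 CPM in KO at 0 h (0.85 ± 0.26, adjusted p = 0.0473; all genes 3.21% higher), and the call ended without KO 0 h replicate 2 or 3 or any KO 6 h library. Between 9 and 6 h Snord34 was higher (0.74 ± 0.18, adjusted p = 0.0363) and Snora70 lower (-1.96 ± 0.49, adjusted p = 0.0393), against 0.783% higher and 0.476% lower among all genes. The Snord34 call ended without KO 6 h replicate 1 or 2 or KO 9 h replicate 2 or 3, and the Snora70 call without any KO 6 h library or KO 9 h replicate 1 or 3.

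The difference between genotypes in the change from 0 h was tested directly. It was called for 11 of 62 genes, 11 of 44 Snord and 0 of 18 Snora (4 Snora at an unadjusted p under 0.05), against 0.888% of all genes. They were Snord14c, Snord14d, Snord21, Snord34, Snord55, Snord58b, Snord66, Snord82, Snord87, Snord104 and Snord110. Snord66, with the smallest adjusted p (0.000875), averaged 18.3, 13.8, 14.5, 19.8 and 20.8 CPM at 0, 3, 6, 9 and 12 h in KO, and 24.0, 29.4, 27.3, 14.9 and 13.3 CPM in WT. Its KO mean was thus below its WT mean up to 6 h and above it from 9 h. Omitting WT 9 h replicate 1 gave a count of 18. The count was 7 on leaving out WT 3 h replicate 3, WT 6 h replicate 2, WT 12 h replicate 1 or 3, KO 6 h replicate 2 or KO 12 h replicate 3. With the rRNA-locus share as a term 1 gene was called, Snord99 (adjusted p = 0.0186), which was not among the 11.

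The host genes did not show changes of the same size. Of the tested members, 53 had a tested host, 38 hosts in all. For the genotype means, the median log2 change of these 53 was -0.44 and that of their hosts -0.12, each host counted once per member. Of the 26 genes called lower with a tested host, 12 had a host that was also called lower, as had 24 of all 53 (all genes 12.2%), and none had a host called higher. Between WT 9 h and WT 6 h, 18 genes with a tested host were called lower, at a median of -0.89. Of their hosts 0 were called, at a median of -0.08, where few of all genes were called (0.831% lower, 0.524% higher). At WT 12 h against 0 h 11 such genes were lower, and 7 of them had a host that was called lower too, at a host median of -0.23. Of all 53, 16 had a host called lower there, counted once per member (all genes 8.47%). In KO at 12 h against 0 h, 19 of the 53 had a host called lower, with a shared host counted once per member (all genes 6.58% lower), while 0 snoRNA genes were. Where a gene lies inside an exon of its host, reads of the host may have been counted for it.

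**Figure D5:**
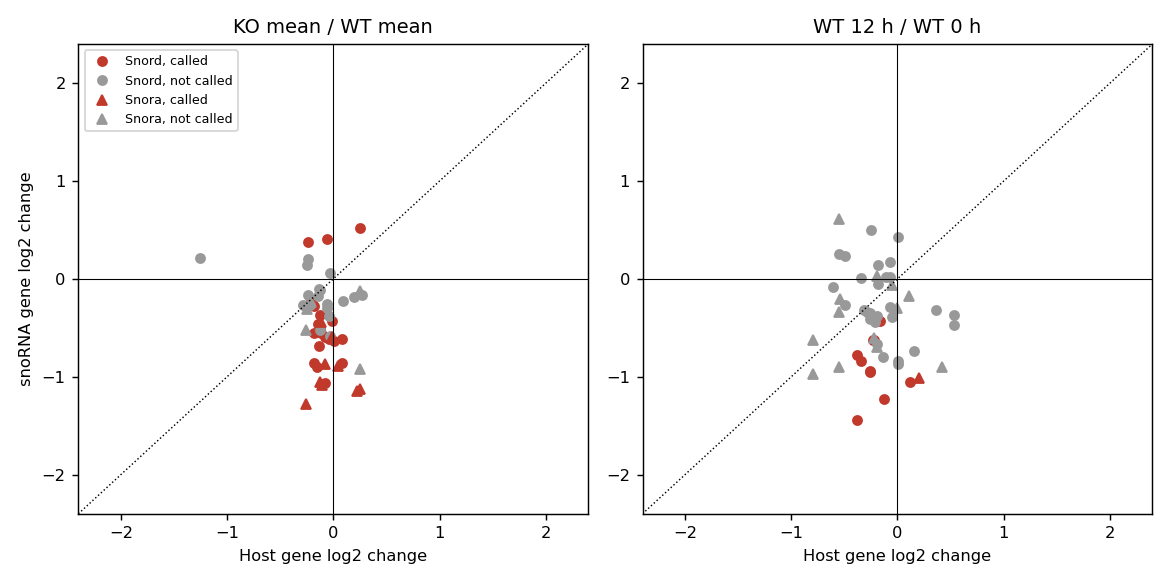
log2 change of each snoRNA gene (y) against that of its host gene (x), for KO mean over WT mean (left) and WT 12 h over WT 0 h (right); circles are Snord, triangles Snora, red marks an adjusted p under 0.05 for the snoRNA gene, the dotted line marks equal change, and Snord33 is left out. Each called gene in the right panel lies below the dotted line.

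Several hosts carry more than 1 of these genes. Within Snhg12, a non-coding host, Snord99 was called higher in KO at 0 h (0.65), the call that ended with any 1 library left out, and Snora16a was lower (-2.20). Its other members were not called at 0 h: Snora44 had a log2 change of -0.08 and Snora61 of -0.63. Snhg12 itself had 8.51, 12.4 and 8.83 CPM in KO and 8.83, 8.81 and 9.96 CPM in WT at 0 h (0.12, adjusted p = 0.92). Rpl13a carries Snord32a, Snord33, Snord34 and Snord35a, RNAs that in rodent cells have been linked to the response to lipid and oxidative stress. At 9 h Snord34 and Snord35a were higher in KO and Snord32a had the same sign but was not called (0.37 ± 0.16, adjusted p = 0.218). Snord33 went the other way, at least 18.1-fold lower in KO by its means, and was not called either, as given below. Rpl13a had a log2 change of -0.14 (adjusted p = 0.734). Rps3 carries Snord15a, lower in KO for the genotype means (-0.68), and Snord15b, not called (-0.10 ± 0.04, adjusted p = 0.102). Tests of the difference between members of a host were not made.

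Some genes varied within groups more than between them. Snord33 had 0, 0 and 0 CPM in KO at 9 h and 13.7, 46.1 and 0 CPM in WT at 9 h, while KO at 12 h had 57.1, 36.0 and 10.8. Against a floor of 3 counts per library it was at least 18.1-fold lower in KO than in WT at 9 h by its means, yet 1 WT library also stood at 0 and the test did not call it (adjusted p = 0.339). Snora57 was at 0 in each library of KO 9 h, KO 12 h and WT 3 h. With such genes at their bounds, or left out where the other group was also under the floor, no Snord median moved. Without Snora57, which was under the floor, the Snora median of KO over WT was -1.14 in place of -1.04 at 3 h and -0.26 in place of -0.28 at 12 h.

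Transcripts of some proteins that carry these RNAs were lower at 12 h in both genotypes, where 6.58% of all genes in KO and 8.47% in WT were called lower. Of the 4 genes for core proteins of box C/D particles, 3 were lower in KO at 12 h (Nop58, Nop56 and Fbl, at -0.72, -0.93 and -0.49) and 2 in WT (Nop56 and Fbl, at -0.38 and -0.46), each against 0 h. Of the 4 genes for core proteins of box H/ACA particles, Dkc1 and Nhp2 were lower in KO at 12 h (-1.56 and -0.72) and in WT (-1.04 and -0.46). Dkc1, dyskerin, the pseudouridine synthase, had 9.15, 7.97 and 10.3 CPM in KO at 12 h, against 29, 27.4 and 23.8 CPM in KO at 0 h. Between the genotype means Nop56 (-0.18) and Dkc1 (-0.44) were lower in KO. Of 14 assembly factors tested, 4 were lower in KO for the genotype means (Ruvbl1, Ruvbl2, Nolc1 and Tcof1, -0.19 to -0.34) and 0 higher, against 12.2% lower and 12.6% higher among all genes. Of 20 trimming and decay genes, Exosc10 was lower (-0.21), and Parn (0.46) and Xrn1 (0.27) were higher, a share of called genes below that of all genes (24.9%). Of 10 tested non-coding hosts, 1, Snhg17, was lower in WT at 12 h against 0 h (-0.83), near the share of all genes (8.47%). It was also the 1 called in KO at 6 h against 0 h (-1.19). For the genotype means 0 of the 10 were called, at a median log2 change of 0.22.

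Other small RNA genes were lower in KO too. Of 30 tested rows of spliceosomal, 7SL, 7SK, RNase MRP, RNase P and small Cajal body RNAs, 10, 12, 10, 11 and 2 were lower in KO at 0, 3, 6, 9 and 12 h and 19 for the genotype means, and 0 were higher, at a median log2 change of -0.94 for the means. Among all genes 2.76%, 3.9%, 3.36%, 2.91% and 0.678% were lower at these times and 12.2% for the means. Rn7sk, the 7SK RNA, was lower by -0.69 ± 0.05 (adjusted p = 3.78e-11), and Rnu1a1, a U1 RNA, by -0.87 ± 0.07 (adjusted p = 2.98e-10). At 9 h, 11 of these 30 and 4 of the 62 snoRNA genes were lower in KO. Several rows of this list are near-identical copies.

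Between genotypes, the authors' deposited tables of their own comparisons give WT over KO. They list 12 of the 64 genes among 193 rows at 3 h and 9 among 154 rows at 6 h, each positive, that is, higher in WT. At 9 h they list 5 among 144 rows, each negative. In the authors' deposited table at 9 h these 5 were Snord34, Snord35a, Snord82, Snord99 and Snord100. At 12 h the authors' deposited table lists 1 among 68 rows, Snord14d (-0.53, adjusted p = 0.036). At 0 h the authors' deposited table lists 4 among 157 rows, 3 positive and 1 negative. For WT after exposure the authors' deposited tables list 3 among 370 rows at 9 h and 6 among 743 rows at 12 h. Each was lower than at 0 h. They list 0 among 33 rows at 3 h and 0 among 160 rows at 6 h. For KO they list 0 among 37, 124, 369 and 528 rows at 3, 6, 9 and 12 h.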

How the data were processed

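The 30 libraries of mouse marrow-derived cells were made with the TruSeq Stranded mRNA kit, per the labels. The authors deposited whole-number gene counts, used here as raw counts from their values. The tools named per the submitters' processing notes are HISAT2, StringTie, Trimmomatic 0.35 and DESeq2, with build GRCm38. No source used here gives the strand setting or the step from StringTie to counts, so counts may be rounded estimates shared between copies and overlapping exons. The authors' deposited comparison tables hold log2 fold changes and p-values with adjusted p-values, and a signal of normalized counts was deposited by the authors in these tables but not used in tests.

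From the counts, edgeR 4.0.16 (R 4.3.3) kept 12393 genes (filterByExpr, minimum count 10; 98.7% of counts), scaled by TMM (factors 0.923 to 1.07), and fitted 10 group terms to all 30 libraries with a robust quasi-likelihood test, two-sided. Residual degrees of freedom were 20. P-values were adjusted by Benjamini-Hochberg over all 12393 genes in each of 17 comparisons, at 0.05. CPM are counts scaled to TMM-adjusted library size. Changes are log2 with standard errors. Of 54532 identifiers 54495 had a GENCODE M21 annotation. A host is the annotated gene on the same strand that spans the snoRNA gene: protein-coding, then non-coding, then one with a name other than a Gm number, then the longest; the step on names was added after the design was written, for readthrough models at Rpl13a. Genes were named by rule: processing snoRNAs, the 5 highest per length in each class, and in each comparison up to 3 per class and direction by size of called change without overlap of libraries; Snord80, Snora21, Snora44, Snord32a and Snord66 among others were named after their values were seen. The members and lists were chosen with earlier results of these data known. Alternatives were no count filter, DESeq2 1.42.0, its size factors in edgeR, TMM without small RNA rows, a replicate block, the 6 libraries alone, each library left out and, added after the data were seen, the rRNA-locus share as a term. Counts per library of 1722384 to 3509429 (median 2492886) leave genes of few counts imprecise. Replicates of a group differed by more than sampling noise, so no library was a duplicate of another in its group. Libraries of different groups were not compared in this way. The fit was tested on simulated data.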

Additional observations from a re-analysis of the deposited data

Results flagged for a closer look

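The change from 0 h differed between KO and WT, by the edgeR test of the difference itself, for 11 Snord genes. The adjusted p was 0.000875 for Snord66, 0.00399 for Snord14d, 0.00399 for Snord55, 0.00455 for Snord58b, 0.0056 for Snord14c, 0.0056 for Snord104, 0.00763 for Snord21, 0.0284 for Snord87, 0.0336 for Snord34, 0.0337 for Snord82 and 0.0432 for Snord110. Of these, 7 kept an adjusted p under 0.05 with each of the 30 libraries left out in turn: Snord14c, Snord14d, Snord21, Snord55, Snord58b, Snord66 and Snord104. With the rRNA-locus share of counts as a term none of the 11 was called.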

How the results depend on the processing

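With TMM computed without small RNA rows each count stayed within 1.5 times its value, and 154 of 154 single-gene calls held; 152 of 154 held with DESeq2 size factors in edgeR, 125 of 151 in DESeq2, 118 of 154 with no count filter and 60 of 108 in fits of the 6 libraries alone, with no direction turned. With no count filter 0 genes were called at WT 6 h, 5 at WT 9 h, 13 for WT 9 against 6 h, 0 at KO 6 h and 1 for KO 9 against 6 h. With DESeq2 size factors 1 was called at KO 12 h and 1 for KO against WT at 12 h. DESeq2 called 0 at KO 6 h, 1 at KO 12 h, 1 for KO 9 against 6 h, 13 for KO against WT at 6 h and 1 at 12 h. The 6 libraries alone gave 8 at WT 6 h, 3 at WT 9 h, 4 for WT 9 against 6 h, 0 at KO 6 h, 2 at KO 12 h, 0 for KO 9 against 6 h and 1 for KO against WT at 9 h. As shares of protein-coding counts, Snord genes took 0.208% in KO and 0.243% in WT and Snora genes 0.0125% and 0.0204%, against 0.143% and 0.160%, and 0.0086% and 0.0134%, of all counts. The rule's minimum of 5 counts gives 84 genes and of 20 counts 46.

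With the rRNA-locus share as a term the counts were 8 at WT 6 h, 0 at WT 9 h, 4 at WT 12 h, 0 for WT 9 against 6 h, 4, 1 and 3 at KO 6, 9 and 12 h, and 1 for KO 9 against 6 h. For KO against WT they were 5, 3, 3, 7 and 2 at 0, 3, 6, 9 and 12 h, 14 for the means and 1 for the difference in change. A change of sign was counted whatever its adjusted p, and 0 genes were called at WT 9 h and for WT 9 against 6 h. Of 154 single-gene calls 30 held, 109 were lost and 15 changed sign. These were Snord99 (0.077) and Snord55 (0.10) at WT 9 h, Snord104 (0.11), Snord57 (0.17), Snord83b (0.27) and Snord55 (0.087) at WT 12 h, and Snord68 (0.037) and Snord87 (0.031) for WT 9 against 6 h. For KO against WT they were Snord68 (0.18) and Snord104 (0.26) at 3 h, Snord68 (0.23), Snord104 (0.15), Snord83b (0.21) and Snord87 (0.057) at 6 h, and Snord50a (0.020) for the means. The cause was not tested.

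Replicate numbers did not pair the libraries: same-numbered libraries' deviations correlated between -0.074 and 0.096 over 135 pairs. With the replicate block 0 genes were called at KO 6 h and 33 for the genotype means, and 140 of 154 single-gene calls held.

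Leaving out 1 library gave 0 to 0 calls at WT 3 h, 1 to 2 at WT 6 h, 2 to 15 at WT 9 h, 11 to 13 at WT 12 h and 7 to 24 for WT 9 against 6 h. In KO it gave 0 to 0, 0 to 1, 0 to 1 and 0 to 2 at 3, 6, 9 and 12 h and 0 to 2 for 9 against 6 h. For KO against WT it gave 6 to 8, 13 to 20, 9 to 15, 6 to 10 and 0 to 2 at 0, 3, 6, 9 and 12 h, 30 to 37 for the means and 7 to 18 for the difference in change. The call at KO 9 h came without KO 9 h replicate 1, those at KO 12 h without KO 0 h replicate 1 (1) or KO 12 h replicate 2 (2), and those for KO against WT at 12 h without KO 12 h replicate 2. Genes of a few counts per library, most Snora genes among them, limit what can be detected, and a gene not called there is not shown to be unchanged.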
